A study of Mus musculus with 2 samples.

Results

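Immunoglobulin heavy variable (Ighv) genes were taken as all genes of the deposited feature table whose symbol starts with Ighv. This gave 185 genes under 183 symbols, of 31053 genes in all, because Ighv5-8 and Ighv1-13 each name a pair of identifiers. In the GENCODE annotation of mm10, all 185 lie on chromosome 12. They comprise 113 V genes, 70 V pseudogenes and 2 genes of a low-confidence V class. The rule uses only gene names, though it was chosen with earlier results of these data known.

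A B cell builds its heavy chain gene by joining 1 V, 1 D and 1 J segment. Allelic exclusion normally leaves each cell with a single productive heavy chain, so the V gene in its messenger RNA labels the cell and its descendants. Selection by antigen, somatic hypermutation in germinal centres and class switching act on that choice later. Ighv11-2 and Ighv12-3 are known in mice for their use by B1 cells, a self-renewing population that makes natural antibodies. Members of the large Ighv1 family, known as J558, lie farthest from the D genes together with the Ighv8 genes.

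The series held single-cell 5′ RNA libraries of live CD45+ leukocytes washed from the stomach of TxA23 mice. These mice carry a transgenic T cell receptor and develop autoimmune gastritis. The IL-27 group had subcutaneous osmotic pumps loaded with 800 ng recombinant IL-27 in 200 µL (4 µg/mL), and the PBS group had pumps with the vehicle. Pumps were implanted at 3 months of age and carried for 4 weeks. The IL-27 library came from 3 females, and the PBS library from 1 male and 1 female. With 1 library per group there is no replicate and no test: intervals below are 95% intervals for counting error only.

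Barcode suffixes marked 3 wells in the IL-27 library, against 2 with PBS. The wells are given side by side as a description, since the sources do not tie them to animals. After filtering, 19985 cells remained with IL-27 and 11675 with PBS, from 80121995 and 43501501 deposited UMIs, with a median of 2746 to 3160 UMIs (unique molecular identifiers, counted molecules) per cell and well. PBS well 2 held 3074 UMIs of Y-linked genes and each of the other 4 wells 0, so the groups also differ in sex. Sex and group cannot be told apart outside the female-called cells wherever PBS well 2 is included. From 42 to 65 barcode sequences were shared between any 2 wells, at most 1.09% of the smaller well. B cells, gated on at least 2 genes of a B cell list that includes Cd79a, Cd79b and Ms4a1, without a Cd3 gene, or on plasma cell genes, numbered 10955 with IL-27 and 7676 with PBS. T cell markers summed to 0 to 1.77 CPM (UMIs scaled to a common total over all genes) in these cells by well. Only the plasma cell gate lets in cells with a Cd3 gene. All of these UMIs, 29 with IL-27 and 32 with PBS, thus lay in plasma-gated cells. Whether such cells are doublets was not tested. Natural killer cell markers summed to 11.8 CPM in PBS well 2 and 0.46 to 3.65 CPM in the other 4 wells. Mast cell markers summed to 12.8 CPM in PBS well 2 and 0 to 1.16 CPM in the other 4 wells. Gastric epithelial markers summed to 6.47 to 42.2 CPM, highest in IL-27 well 1. Markers of plasmacytoid dendritic cells (Siglech, Bst2 and Ccr9) summed to 54.0 to 119 CPM, all 3 detected in each well and highest in PBS well 2. Myeloid markers, given below, were also highest there, and it was the only well where the doublet call was not used. The part of all these markers in the results was not tested.

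A cell was assigned to an Ighv gene when it had at least 2 Ighv UMIs and 1 gene held at least 80% of them. This assigned 4648 B cells with IL-27 and 3534 with PBS. Of the 185 genes, 140 had a UMI in a kept cell and 45 had none. At least 1 cell was assigned to 106 genes, and at least 30 cells over both libraries to 45 genes. Of the 70 pseudogenes, 39 had no UMI, against 4 of the 113 V genes.

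The counted reads start at the 5′ end, and the V segment ends a few bases after a conserved cysteine codon, before the join to D. The last 90 bases up to that codon are shown for 8 genes on which the results turn: the 4 most used, 1 that led in germinal centre cells, 1 with many switched cells and the pair known from B1 cells. They were read from GENCODE transcripts on the minus strand of mm10 and are given 5′ to 3′, with the cysteine codon in capitals.
Ighv5-4 (chr12:113597446-113597977): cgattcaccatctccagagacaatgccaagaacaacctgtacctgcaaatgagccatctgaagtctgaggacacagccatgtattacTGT
Ighv3-2 (chr12:114033803-114034233): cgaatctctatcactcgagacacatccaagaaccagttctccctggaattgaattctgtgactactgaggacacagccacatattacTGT
Ighv9-3 (chr12:114140692-114141122): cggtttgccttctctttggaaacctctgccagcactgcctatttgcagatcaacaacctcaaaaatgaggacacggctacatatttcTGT
Ighv2-2 (chr12:113588267-113588702): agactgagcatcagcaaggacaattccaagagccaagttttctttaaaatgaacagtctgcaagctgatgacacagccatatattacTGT
Ighv1-14 (chr12:114646572-114647056): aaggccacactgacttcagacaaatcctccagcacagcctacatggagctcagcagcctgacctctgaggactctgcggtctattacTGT
Ighv1-12 (chr12:114615850-114616318): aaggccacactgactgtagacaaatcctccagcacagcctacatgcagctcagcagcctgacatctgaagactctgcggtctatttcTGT
Ighv11-2 (chr12:114048241-114048812): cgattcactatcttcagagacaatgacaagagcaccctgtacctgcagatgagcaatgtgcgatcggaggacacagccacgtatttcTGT
Ighv12-3 (chr12:114366521-114366954): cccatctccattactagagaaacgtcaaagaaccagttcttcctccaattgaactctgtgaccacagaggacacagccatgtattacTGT

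Ighv5-4, Ighv3-2 and Ighv9-3 were the most used in both libraries. Ighv5-4 was assigned to 6.93% of IL-27 B cells (322 cells, interval 6.21% to 7.70%) and 8.35% of PBS B cells (295 cells). By well it took 5.37%, 7.83% and 7.47% in the IL-27 library, against 7.90% and 8.79% in the PBS library. All 3 IL-27 wells lay below both PBS wells, by a margin of less than 1 percentage point for the nearest pair. Ighv3-2 took 7.39%, 6.22% and 6.77% in the IL-27 wells, against 6.88% and 7.32% in the PBS wells. Ighv9-3 took 6.06%, 6.15% and 6.33% in the IL-27 wells, against 5.74% and 6.08% in the PBS wells. For both genes the libraries overlapped. Ighv3-2 was the leading gene in IL-27 well 1 and Ighv5-4 in the other 4 wells.

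Next came Ighv2-2, with 4.43% with IL-27 and 4.58% with PBS, followed by Ighv1-9, Ighv5-17 and Ighv2-6. These 4 genes ran from 2.62% to 5.06% over all wells and each overlapped between libraries. Ighv9-1 took 2.73% with IL-27 and 3.96% with PBS, with 2.58%, 3.00% and 2.65% in the IL-27 wells, against 4.15% and 3.77% in the PBS wells. Ighv1-14 lay the other way, with 3.85% with IL-27 and 2.69% with PBS. Its wells held 3.69%, 3.29% and 4.39% with IL-27, against 2.90% and 2.48% with PBS. For Ighv9-1 and Ighv1-14 the wells of the libraries did not overlap. Ighv8-8, Ighv3-6 and Ighv5-6 completed the 12 most used genes, each between 1.98% and 3.52% in every well.

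**Figure D1:**
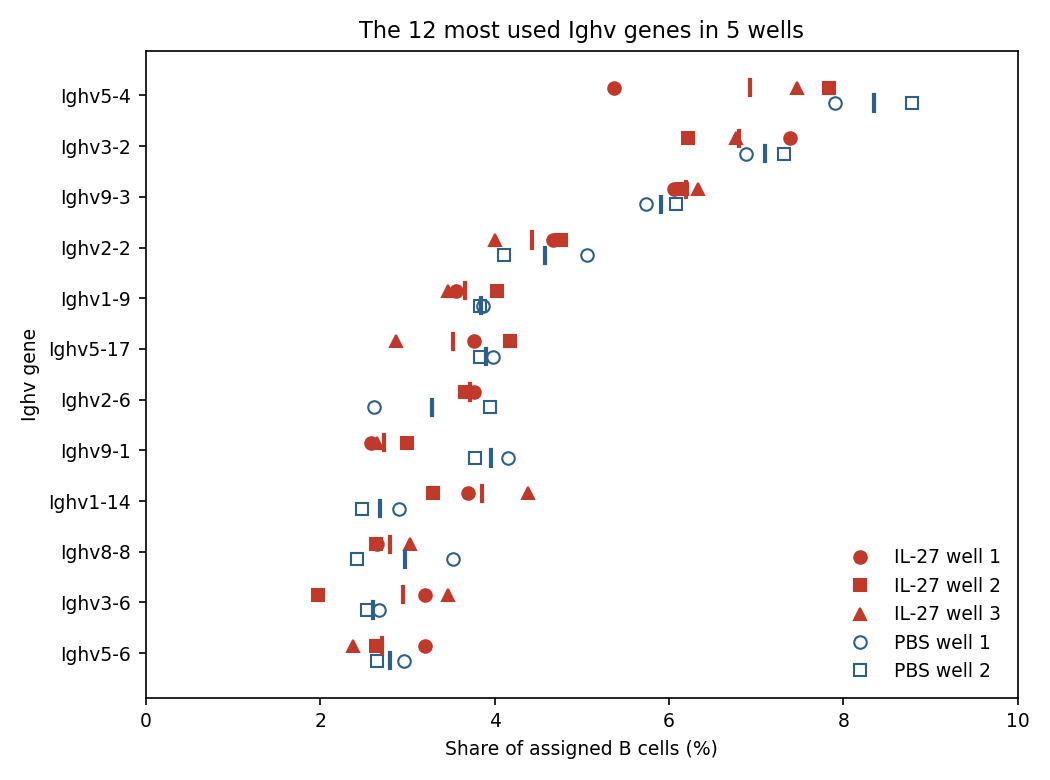
Share of assigned B cells (x axis, percent) for the 12 most used Ighv genes (y axis) in the IL-27 wells (filled red) and PBS wells (open blue), with a bar at each library's share. Ighv5-4 and Ighv9-1 lie lower and Ighv1-14 higher in all 3 IL-27 wells than in both PBS wells, and the other 9 genes overlap.

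Usage was spread widely and to a similar degree in both libraries. The 10 most used genes held 44.9% of assigned cells with IL-27 and 46.7% with PBS. A sample of 1000 assigned cells was expected to hold 83.9 genes with IL-27 and 80.6 with PBS. By well the expected number was 86.0, 84.9 and 84.1 with IL-27, against 81.4 and 78.9 with PBS, so the wells did not overlap. The chance that 2 cells share a gene was 3.01% with IL-27 and 3.22% with PBS. Between wells, the share of cells that would have to change gene to make the usages equal was 11.1% to 14.2% across libraries (6 pairs) and 10.9% to 13.1% within a library (4 pairs).

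Ighv3-2 and Ighv1-14 are pseudogenes in the annotation of the C57BL/6J reference. Cells assigned to an annotated pseudogene made up 12.4% of assigned cells with IL-27 (575 cells) and 11.1% with PBS (393 cells). The share was 13.5%, 11.1% and 12.5% in the IL-27 wells, against 11.3% and 11.0% in the PBS wells. Ighv3-2, Ighv1-14 and Ighv1-2 held 885 of these 968 cells, or 91.4%. The strain of the mice is not given in the sources used here. Reads can only be counted for genes of the reference, so a symbol here names a reference gene and not necessarily the allele a mouse carried. Whether this bears on the share of annotated pseudogenes was not tested.

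By family, the 93 Ighv1 genes took 30.9% with IL-27 and 28.9% with PBS (ratio 1.07, interval 0.99 to 1.16). The Ighv5 family took 15.8% with IL-27 and 17.7% with PBS (ratio 0.89, 0.80 to 0.99). The Ighv9 family took 9.21% with IL-27 and 10.2% with PBS (ratio 0.91, 0.79 to 1.05). All IL-27 wells lay above both PBS wells for Ighv1 and below them for Ighv5 and Ighv9. In Ighv5 the nearest wells were 17.4% for IL-27 well 2 and 17.6% for PBS well 1, and in Ighv1 29.8% and 29.5% for the same wells. The wells also lay apart for the small families Ighv13 (0.32% with IL-27, 0.17% with PBS) and Ighv4 (0.95% with IL-27, 1.30% with PBS). Every other family overlapped or had no assigned cell. The Ighv2 family, at 15.2% with IL-27 and 14.2% with PBS, and the Ighv3 family, at 11.96% with IL-27 and 11.86% with PBS, overlapped between libraries.

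Along the locus, which spans 2437 kb, usage was uneven. The 23 genes within 250 kb of the last D gene held 25.5% with IL-27 and 26.1% with PBS, although 9 of them are annotated pseudogenes. The 40 genes from 500 to 1000 kb held 33.2% with IL-27 and 33.7% with PBS. The 50 genes from 1000 to 1500 kb held 13.9% with IL-27 and 14.1% with PBS. The 28 genes beyond 2000 kb held 12.6% with IL-27 and 10.4% with PBS. In that most distant part the wells gave 12.8%, 12.4% and 12.5% with IL-27, against 11.8% and 8.96% with PBS. Ighv5-4 lies 72.1 kb from the last D gene, Ighv3-2 508 kb and Ighv9-3 615 kb. Ighv8-8, at 1769 kb, was the most used gene beyond 1500 kb in both libraries.

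**Figure D2:**
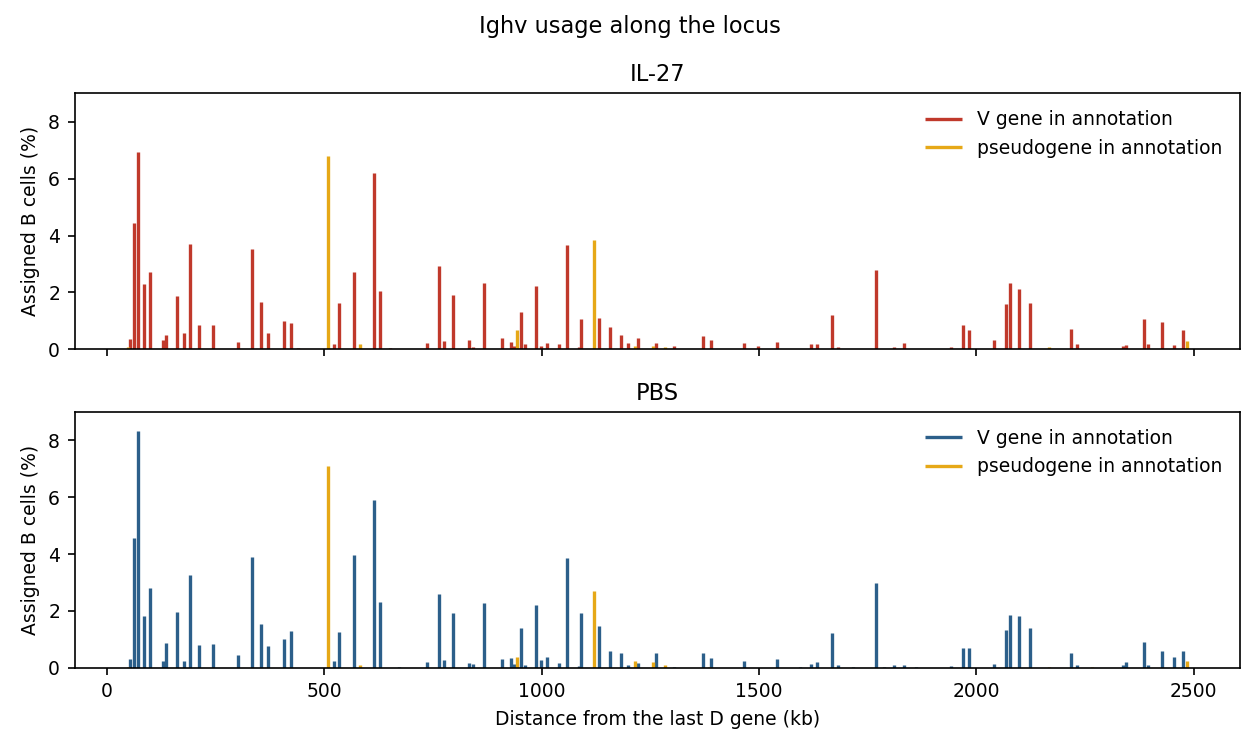
Share of assigned B cells (y axis, percent) of each Ighv gene against its distance from the last D gene (x axis, kb), in the IL-27 library (upper panel) and the PBS library (lower panel). Yellow lines are annotated pseudogenes, of which Ighv3-2 at 508 kb and Ighv1-14 at 1121 kb stand out in both panels.

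The comparison of IL-27 with PBS was made by the ratio of shares for the 45 genes with at least 30 assigned cells. The ratios ran from 0.56 to 2.47 with a median of 1.00, and 23 of 45 were above 1. A ratio of at least 1.5 was reached by 3 genes (6.67% of 45) and a ratio at or below the inverse of 1.5 by 2 genes (4.44%). Among 67 light chain V genes handled alike, the same rule gave 2.99% higher and 4.48% lower. All IL-27 wells lay above both PBS wells for 13.3% of the 45 genes and below them for 15.6%, against 17.9% and 8.96% of the light chain genes. The interval of the ratio left out 1 for 6 of the 45 genes.

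The higher genes were Ighv5-12, Ighv1-2 and Ighv1-82. Ighv5-12 took 0.35%, 0.51% and 0.76% in the IL-27 wells, against 0.28% and 0.17% in the PBS wells (26 cells with IL-27, 8 with PBS, ratio 2.47, interval 1.09 to 6.32). Ighv1-2 took 1.11%, 0.51% and 0.43% in the IL-27 wells, against 0.34% and 0.39% in the PBS wells (ratio 1.81, 0.92 to 3.78). Ighv1-82 took 1.05%, 1.24% and 0.65% in the IL-27 wells, against 0.51% and 0.68% in the PBS wells (ratio 1.59, 0.93 to 2.82). The wells overlapped for Ighv1-82, and the intervals of Ighv1-2 and Ighv1-82 held 1. Ighv1-2 rested on IL-27 well 1, with a log2 ratio of 0.34 without it, and Ighv1-82 was no longer past the fold without IL-27 well 2 (0.47) or PBS well 1 (0.49). Next in order were Ighv1-14 (ratio 1.43, 1.11 to 1.86), Ighv1-18 (1.34) and Ighv1-71 (1.32), the last pair with intervals that held 1.

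The lower genes were Ighv1-12 and Ighv5-9. Ighv1-12 took 0.84%, 1.17% and 1.19% in the IL-27 wells, against 1.42% and 2.42% in the PBS wells (50 cells with IL-27, 68 with PBS, ratio 0.56, interval 0.38 to 0.82). Ighv5-9 took 0.35%, 0.51% and 0.60% in the IL-27 wells, against 0.63% and 1.13% in the PBS wells (ratio 0.56). In both genes PBS well 2 was the highest of the 5 wells. This well held the Y-linked UMIs and was the only one where the doublet call was not used. Without it the log2 ratios were -0.40 for Ighv1-12 and -0.34 for Ighv5-9, no longer past the fold. Ighv9-1 had a ratio of 0.69 (0.54 to 0.88) and Ighv5-4 of 0.83 (0.71 to 0.98). Ighv4-1 (0.71), Ighv1-15 (0.75) and Ighv7-1 (0.76) had intervals that held 1.

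**Figure D3:**
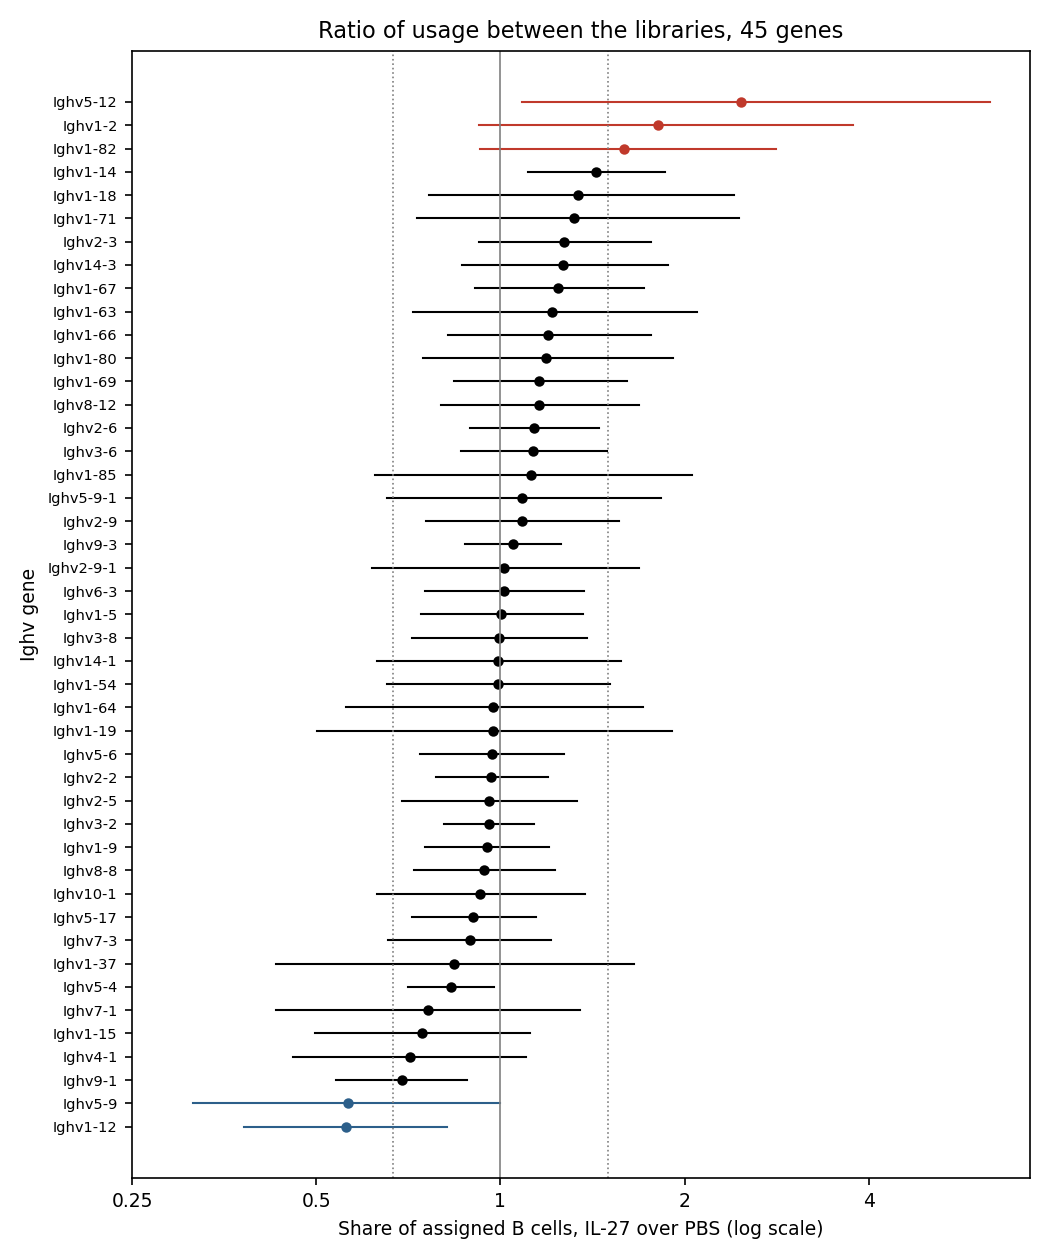
Ratio of the share of assigned B cells, IL-27 over PBS (x axis, log scale), for the 45 Ighv genes with at least 30 assigned cells (y axis), with exact 95% intervals for counting error. Dotted lines mark 1.5-fold in each direction: Ighv5-12, Ighv1-2 and Ighv1-82 (red) lie above it, and Ighv1-12 and Ighv5-9 (blue) below it.

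In some cells the Ighv UMIs were split between genes. Among B cells with at least 4 Ighv UMIs, 32.4% with IL-27 and 28.8% with PBS had a leading gene below 80%. The second gene was of the same family in 15.2% with IL-27 and 12.5% with PBS, and of another family in 17.2% with IL-27 and 16.3% with PBS, so splits across families were the more frequent. The most frequent pair was Ighv5-4 with Ighv5-6, in 143 cells, whose transcripts are 95.7% identical over 351 aligned bases. Ighv4-1 with Ighv4-2 (59 cells, 96.4%) and Ighv5-4 with Ighv5-9-1 (52 cells, 93.1%) followed. The 10 most frequent pairs were all within 1 family and held 472 cells. Over the same 90 bases as above, Ighv4-1 and its annotated pseudogene neighbour Ighv4-2 are identical. Ighv5-6, Ighv5-9-1 and Ighv5-12 differ from Ighv5-4 by 3, 4 and 2 bases, and Ighv9-1 from Ighv9-3 by 1, here in capitals.
Ighv5-4, for comparison: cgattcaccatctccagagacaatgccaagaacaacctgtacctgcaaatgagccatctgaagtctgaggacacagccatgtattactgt
Ighv5-6 (chr12:113625506-113625956): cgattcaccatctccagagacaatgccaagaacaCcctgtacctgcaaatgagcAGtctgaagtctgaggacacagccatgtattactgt
Ighv5-9-1 (chr12:113736111-113736630): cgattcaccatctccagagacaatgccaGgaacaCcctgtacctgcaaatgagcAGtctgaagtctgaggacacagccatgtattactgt
Ighv5-12 (chr12:113702124-113702578): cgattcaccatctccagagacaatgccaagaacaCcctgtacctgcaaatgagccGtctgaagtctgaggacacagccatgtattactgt
Ighv9-3, for comparison: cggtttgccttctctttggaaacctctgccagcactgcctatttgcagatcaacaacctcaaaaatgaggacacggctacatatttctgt
Ighv9-1 (chr12:114093928-114094358): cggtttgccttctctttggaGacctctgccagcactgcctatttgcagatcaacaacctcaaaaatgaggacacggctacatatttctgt

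Values of single genes that often led split cells are uncertain. The rate of split cells was 84.5% for cells led by Ighv1-2, 60.6% for Ighv1-82, 44.2% for Ighv5-9 and 30.6% for Ighv5-12. Of the genes past the fold, Ighv1-12 had the lowest rate, below that of Ighv9-3. The rate was 37.9% for Ighv5-4, 20.2% for Ighv9-3 and 18.4% for Ighv1-14. It did not follow the identity to the nearest gene in every case: that identity is 84.4% for Ighv1-2, while Ighv2-2 (97.7%) and Ighv1-71 (99.7%) were split in 18.8% and 18.4% of the cells they led. What splits the reads was not tested. Pooled, Ighv5-4, Ighv5-6, Ighv5-9-1, Ighv5-12 and Ighv5-9 took 11.6% with IL-27 and 13.0% with PBS (ratio 0.89, 0.78 to 1.01). The pool was formed after the values were seen. Its wells held 10.1%, 12.3% and 12.1% with IL-27, against 12.6% and 13.5% with PBS. Pooled, Ighv9-1, Ighv9-2 and Ighv9-3 took 8.93% with IL-27 and 9.88% with PBS (ratio 0.90, 0.78 to 1.05).

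Some genes fixed for their place in the literature on mouse B cells were assigned to few cells here. Of 14 such genes, 5 had at least 30 assigned cells: Ighv2-2, Ighv9-1, Ighv6-3, Ighv8-12 and Ighv1-80. Ighv6-3 took 2.32% with IL-27 and 2.29% with PBS, and Ighv8-12 took 1.64% with IL-27 and 1.41% with PBS. Ighv1-80 took 1.08% with IL-27 and 0.91% with PBS. Ighv1-26 had 10 assigned IL-27 cells and 18 PBS cells, and Ighv1-53 had 9 IL-27 and 7 PBS cells. Ighv5-2 had 17 IL-27 and 11 PBS cells, and Ighv1-72 had 8 IL-27 and 3 PBS cells. Ighv1-55 had 4 cells in each library, and the pseudogene Ighv5-1 had 3 IL-27 cells and 1 PBS cell. Ighv14-2 had 1 assigned IL-27 cell and 0 of 3534 PBS cells. For Ighv1-53 the low number stood beside split reads, since 203 IL-27 and 127 PBS B cells held at least 1 of its UMIs and 18 of the 20 cells it led at 4 or more UMIs were split. Ighv5-2 had a UMI in 222 IL-27 and 116 PBS B cells, Ighv1-26 in 111 and 78, and Ighv14-2 in 65 and 37. Of the cells led at 4 or more UMIs, 64.5% were split for Ighv5-2 and 57.6% for Ighv1-26. Low numbers of assigned cells thus do not by themselves show low use of these genes.

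The level of Ighv messenger RNA differed far more between cell states than between libraries. At least 1 Ighv UMI was found in 82.3% of IL-27 B cells and 83.4% of PBS B cells, at median depths of 2821 and 2783 UMIs. T cells, which lack these transcripts, gave the level of free RNA: 2.23% of IL-27 T cells and 2.71% of PBS T cells held an Ighv UMI, at median depths of 3979 and 4029 UMIs. Cells in the follicular gate (Fcer2a, the CD23 gene) held a median of 3 Ighv UMIs in both libraries. Plasma cells, gated on Jchain, Xbp1 and 1 further gene, held a median of 210 Ighv UMIs with IL-27 and 600 with PBS.

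Plasma cells were few but held a large part of all Ighv UMIs. In the IL-27 library 45 of them, 0.225% of cells, held 42.7% of 74552 Ighv UMIs. In the PBS library 16 of them, 0.137% of cells, held 35.3% of 45777. By well there were 5, 3 and 37 plasma cells with IL-27, against 9 and 7 with PBS, and they held 5.34%, 6.23% and 62.7% of Ighv UMIs with IL-27, against 27.2% and 40.9% with PBS. IL-27 well 3 thus set the IL-27 value: without it the share was 5.75%. The highest cell, assigned to Ighv2-3 in IL-27 well 3, held 8743 Ighv UMIs, 11.7% of its library. The highest PBS cell, assigned to Ighv9-4 in PBS well 2, held 4072, or 8.90%.

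Usage counted in UMIs therefore followed single cells. By CPM in B cells, the ratio of IL-27 over PBS for Ighv2-3 was 13.8, while its ratio of assigned cells was 1.27. For Ighv5-17 the CPM ratio was 0.25 and the ratio of assigned cells 0.90. A CPM ratio of at least 1.5 was found for 25.3% of 83 Ighv genes with enough UMIs, and one at or below its inverse for 8.43%, against 2.04% and 1.43% of 10369 genes of all kinds. Without plasma cells the Ighv shares were 7.23% in each direction, against 1.57% higher and 1.45% lower of all genes, and the CPM ratio of Ighv2-3 was 0.97. Of the plasma cells, 30 with IL-27 and 12 with PBS were assigned, to 21 and 10 different genes. Ighv5-4 had most with 4 cells over both libraries, followed by Ighv2-3, Ighv3-2, Ighv9-1 and Ighv9-3 with 3 each.

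**Figure D4:**
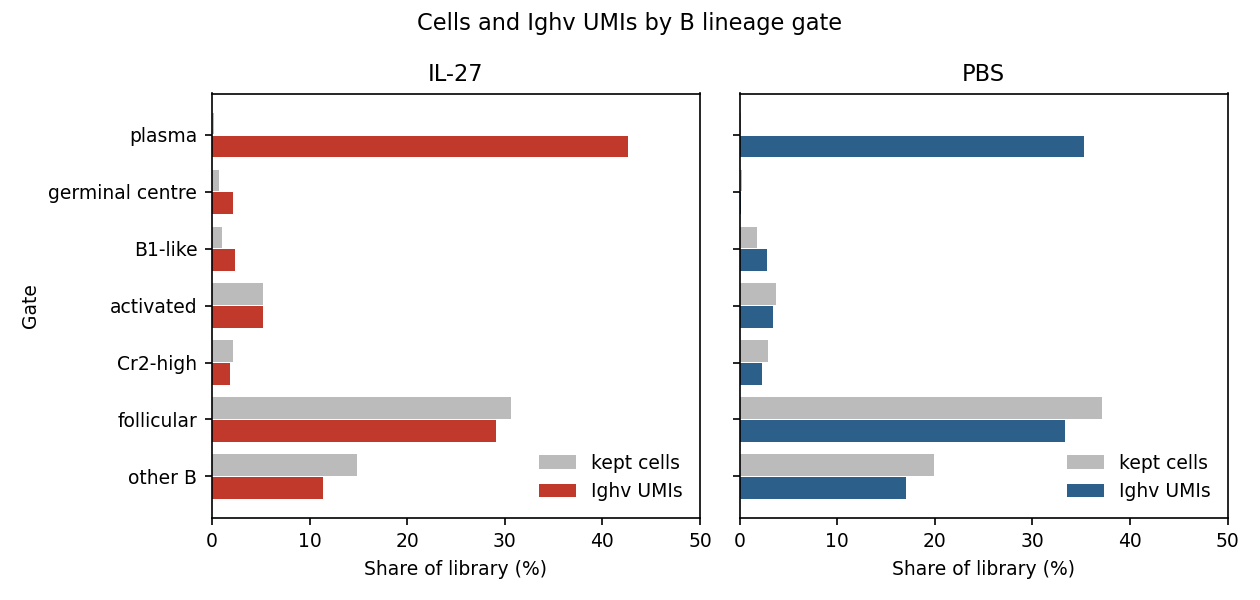
Share of kept cells (grey) and of Ighv UMIs (colour) in each B lineage gate (y axis) as percent of the library (x axis), for IL-27 (left) and PBS (right). Plasma cells are under 1% of cells in both libraries and hold 42.7% of Ighv UMIs with IL-27 and 35.3% with PBS.

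Ighv1-14 led among germinal centre cells. This gate asked for at least 2 genes of a list that includes Mef2b, Rgs13, S1pr2, Bcl6, Gcsam and Mybl1, genes of B cells that mutate and select their receptors. It held 140 cells with IL-27 and 23 with PBS, and by well 29, 26 and 85 with IL-27, against 12 and 11 with PBS. Ighv1-14 was assigned to 12 of 66 IL-27 cells (18.2%, interval 9.76% to 29.6%) and to 0 of 11 PBS cells, a number that allows a share of up to 28.5%. Of these 12 cells, 11 were among the 45 assigned cells of IL-27 well 3. Without that well, the share with IL-27 was 4.76% (1 of 21 cells). With cells of the same well, heavy and light V gene counted once it was 7.69%. That count also leaves out every cell without an assigned light chain, among them 5 of the 12, so it does not show the effect of shared pairs alone. In the follicular gate Ighv1-14 took 3.44% over both libraries.

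The 12 Ighv1-14 germinal centre cells held a median of 24.5 Ighv UMIs, with 2 to 116, while the other 65 assigned germinal centre cells held a median of 7, with 2 to 67. Depth differed as well: the 12 cells held 6846 to 29023 UMIs of all genes. The median over all cells of the gate was 6659.5 with IL-27, 8166 in IL-27 well 3 and 3714 with PBS. The part of depth and well in this difference was not tested. Ighm was the leading constant gene in 7 of the 12 and Ighg1 in 5. Igkv3-2 was the assigned light chain V gene in 4 of them, Igkv2-137 in 2 and Igkv13-85 in 1, and 5 had no assigned light chain. All 4 cells with Igkv3-2 came from IL-27 well 3. The files hold no junction sequences, so common descent was not tested. Next in the gate over both libraries were Ighv5-4 with 7 of 77 cells, Ighv3-6 and Ighv5-6 with 5 each and Ighv3-2 with 4. The Ighv1 family took 41.6% of the gate (30.4% to 53.4%), against 31.6% of follicular cells (30.3% to 33.0%). This value rested on IL-27 well 3 and on Ighv1-14, itself a member of the family. The share was 43.9% with IL-27 (29 of 66 cells) and 27.3% with PBS (3 of 11 cells). Without IL-27 well 3 it was 31.2% (10 of 32 cells), and without Ighv1-14 cells it was 30.8% (20 of 65 cells), both close to the follicular share.

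The B1-like gate, at least 2 of Bhlhe41, Zbtb32, Fcrl5, Cd5, Spn and Itgam, held the Ighv1 family at a lower share than the follicular gate. The Ighv1 family took 19.3% of its 207 assigned cells (14.2% to 25.4%), with 19.3% with IL-27 and 19.4% with PBS. The follicular gate gave 32.3% with IL-27 and 30.8% with PBS. Under gates stricter by 1 gene or UMI, the B1-like share was 28.6%, and its interval reached into that of the follicular gate. Ighv11-2 took 2.90% of B1-like cells (6 cells, 1.07% to 6.20%) and 0.11% of follicular cells (5 of 4684). The 6 cells were 0, 0 and 1 in the IL-27 wells, against 1 and 4 in the PBS wells, or 1 of 109 B1-like cells with IL-27 and 5 of 98 with PBS. Without PBS well 2, the well with Y-linked UMIs, the share was 1.63% (0.20% to 5.75%). Ighv12-3, the other gene known from B1 cells, was assigned to 4 IL-27 and 5 PBS B cells in all. The gate was led by Ighv9-3 with 18 cells, Ighv3-2 with 16, Ighv5-4 with 14, Ighv2-9 with 10 and Ighv3-8 with 9.

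Of the B1-like cells, 51, 83 and 81 were in the IL-27 wells, against 44 and 160 in the PBS wells. Markers of myeloid cells, Lyz2, Csf1r, Itgam and S100a8, summed to 24.4, 46.0 and 40.5 CPM in B cells of the IL-27 wells, against 82.4 and 227 CPM in those of the PBS wells, with all 4 genes detected in each well. Itgam is also in the B1-like gate. With Itgam left out of the gate, the Ighv1 family took 19.0% and Ighv11-2 2.93% of its assigned cells.

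**Figure D5:**
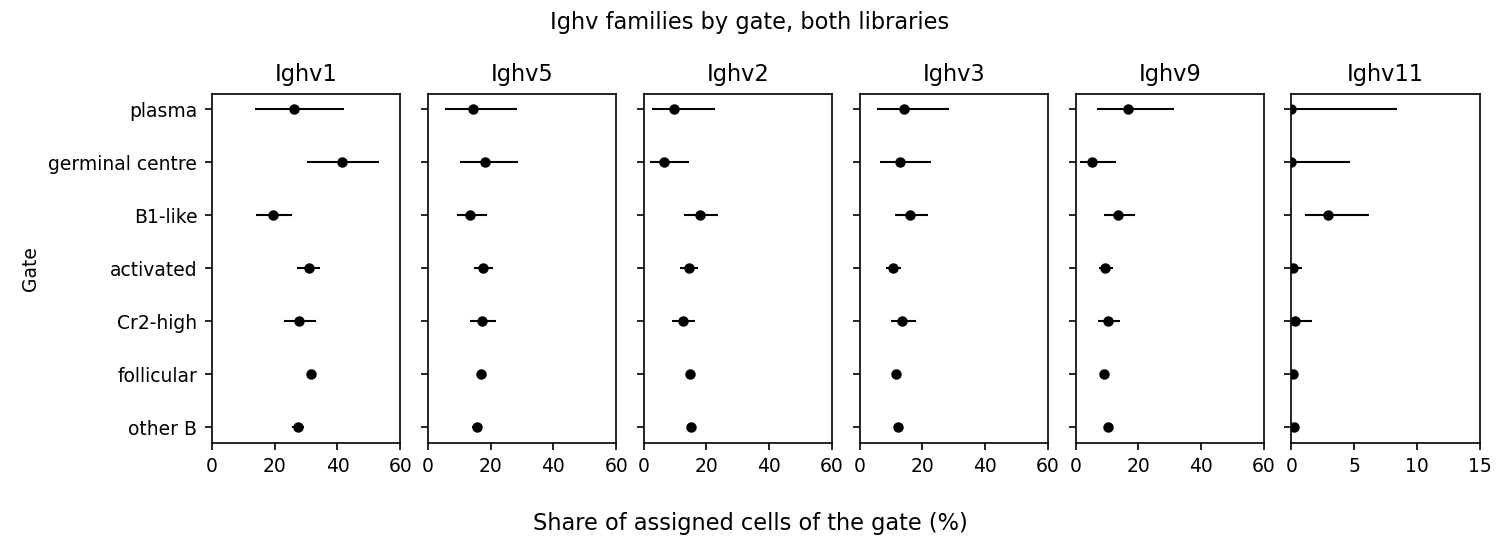
Share of the assigned cells of each gate (y axis) that used 6 Ighv families (panels, x axis in percent, with a shorter axis for Ighv11), over both libraries with exact 95% intervals for counting error. The Ighv1 family is at 19.3% in the B1-like gate, 31.6% in the follicular gate and 41.6% in the germinal centre gate, where it is 31.2% without IL-27 well 3.

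In each of the 4 remaining gates, Ighv5-4, Ighv3-2, Ighv9-3 and at least 1 more of the 12 most used genes were among the 5 leading genes. In cells with at least 2 UMIs of Il4i1, a gene induced on B cell activation, Ighv5-4 took 7.38%, Ighv9-3 7.08% and Ighv3-2 6.31% of 650 cells, followed by Ighv2-2 and Ighv5-17. In the Cr2-high gate (Cr2, the complement receptor CD21, without Fcer2a), Ighv3-2 took 8.79% and Ighv5-4 8.48% of 330 cells, followed by Ighv9-1 at 5.76%. In the follicular gate, Ighv5-4 took 7.60%, Ighv3-2 6.98% and Ighv9-3 5.61% of 4684 cells. In the remaining B cells, Ighv5-4 led with 7.30% of 2192 cells, and Ighv9-3, Ighv3-2, Ighv2-2 and Ighv2-6 followed.

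The leading heavy constant gene, the one with most UMIs, was read as a second feature of each cell. Unlike for the Ighv gene, any constant UMI was enough and no minimum share was asked. Ties went to Ighm before the other constant genes. The part of free RNA in these calls was not tested. Among all B cells with a constant gene, 2.96% with IL-27 and 5.14% with PBS had a switched one (Ighg, Igha or Ighe). By well the share was 1.95%, 2.74% and 3.94% with IL-27, against 1.64% and 8.97% with PBS, where 219 of the 319 switched cells of PBS well 2 had Igha. The libraries overlapped, and PBS well 2, which held the Y-linked UMIs, stood apart from the other 4 wells. Among the named genes with at least 30 cells, Ighv1-12 had the highest switched share, 17.9% (21 of 117 cells, 11.5% to 26.1%), against 4.15% of all assigned cells. Of the 21 cells, 19 had Igha, the constant gene of mucosal antibodies, and 15 came from PBS well 2, where 34.9% of its 43 cells were switched. Without PBS well 2 the share was 8.11%.

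Some Ighv1-12 cells shared a light chain V gene, as did cells of other Ighv genes. In PBS well 2, 11 cells paired Ighv1-12 with Igkv1-117, 8 of them switched, and 6 paired it with Igkv4-59, 5 of them switched. In the same well, Ighv5-4 with Igkv6-23 had 10 cells (4 switched) and Ighv9-3 with Igkv1-117 had 9 (3 switched). There, Ighv5-4 with Igkv12-44 had 8 cells (0 switched) and Ighv9-1 with Igkv14-111 had 6 (5 switched). Common descent of such cells was not tested. The largest pair of any well was Ighv5-4 with Igkv10-96, in 13 cells of IL-27 well 3, none of them switched. This pair was found in every well, with 3, 3 and 13 cells in the IL-27 wells, against 2 and 7 in the PBS wells. Ighv3-2 with Igkv1-88 was found in 7 cells of IL-27 well 1, of which 4 were in the B1-like gate. Over all wells, 5938 cells with both chains assigned held 4224 pairs counted per well.

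By family, the intervals of switched and unswitched cells overlapped for Ighv1, Ighv5 and Ighv9, while single genes differed more. The Ighv1 family took 30.5% of 331 switched cells and 30.1% of 7640 unswitched cells, Ighv5 took 15.1% of switched and 16.7% of unswitched cells, and Ighv9 took 10.6% of switched and 9.50% of unswitched cells. Ighv1-12 took 6.34% of switched cells (3.97% to 9.53%) and 1.26% of unswitched cells (1.02% to 1.53%). Without PBS well 2 it took 3.68% of switched cells (1.36% to 7.84%) and 1.12% of unswitched cells. Lower among switched cells were Ighv3-2, with 3.02% of switched and 7.17% of unswitched cells, and Ighv2-2, with 1.81% of switched and 4.55% of unswitched cells. Without PBS well 2, Ighv3-2 took 2.45% of switched and 7.03% of unswitched cells, and the interval of Ighv2-2 among switched cells (0.67% to 6.16%) held its unswitched share of 4.60%. Ighv3-6 took 5.14% of switched and 2.70% of unswitched cells, and Ighv5-4 took 8.76% of switched and 7.45% of unswitched cells. Plasma cells had Ighg1 as leading constant gene in 24 of 45 cells with IL-27 and 0 of 16 with PBS, and Igha in 9 of 45 cells with IL-27 and 8 of 16 with PBS. Of the 24, 22 were in IL-27 well 3.

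Genes that act with Ighv genes were compared by CPM in B cells. Cd79a and Cd79b, the signalling partners of the receptor, had ratios of 0.96 and 1.05, and Ighm had 0.94. Pou2af1, the coactivator OCA-B that acts at V gene promoters, had 180 CPM with IL-27 and 148 with PBS (ratio 1.22), with 201, 193 and 158 CPM in the IL-27 wells, against 163 and 133 in the PBS wells. These wells overlapped. Among Pou2f1, Pou2f2, Spi1, Spib, Ebf1, Pax5, Tcf3, Ikzf1, Irf4, Irf8 and Bcl11a, factors of the B lineage, ratios ran from 0.92 for Ebf1 to 1.14 for Pax5. Rag1, of the V(D)J recombinase, had 1 UMI in IL-27 B cells and 0 in PBS B cells, Rag2 had 0 in both, and Dntt, which adds bases at the junction, had 3 with IL-27 and 7 with PBS.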

How the data were processed

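Per the submitters' processing notes, reads were processed with Cell Ranger 3.0.0 against mm10. Version 3.1.0 is given as the software in the matrix files, per the file headers. The authors deposited filtered matrices of raw UMI counts per gene and cell for both libraries, and all values here come from these counts. Cells with at least 200 genes and at most 10% mitochondrial UMIs were kept. Doublets were called per well with Scrublet (scanpy 1.11.5, seed 1) and left out, except in PBS well 2, where the call marked 0.055% of cells and was not used. Annotation and sequences came from GENCODE M21, and identities from local alignment (Biopython 1.88). Intervals are exact binomial (shares) or exact conditional (ratios, with scipy 1.17.1) and cover counting error only. The assignment and the ratio intervals were run on simulated cells with known usage. Each simulated cell had 1 gene and few stray UMIs, with no reads shared between similar genes. The check therefore does not cover split reads.

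The gene lists of the B cell and germinal centre gates each hold 1 further gene that is not reported here. The members and gene lists were chosen with earlier results of these data known. Named genes are the 12 with the highest mean share, the 6 highest and 6 lowest ratios among genes with at least 30 assigned cells, the 5 leading genes of each gate with at least 20 assigned cells, the leading gene of each well, and a fixed list. Rows past a 1.5-fold ratio were counted, since no test across samples was possible. Alternatives covered cell filters, assignment, gates, depth, pairs counted once and each well left out. Counting pairs once left out all cells without an assigned light chain. Leaving out plasma cells, Itgam, Ighv1-14 cells or, for switched cells, PBS well 2, and pooling near-identical genes, were added after seeing the data.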

Additional observations from a re-analysis of the deposited data

How the results depend on the processing

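No paired analysis was possible because each group has 1 library and the wells carry no shared numbers from the labels. The count of genes past 1.5-fold was 5 in the main setting. It was 17 in Ighv UMIs, 1 at a fold of 2 and 2 at a minimum of 60 assigned cells. With cells of the same well, heavy and light V gene counted once it was 3, and in female-called cells 11. With each well left out in turn it was 3 to 9, with 3 without IL-27 well 1 and 9 without PBS well 1. The minimum of assigned cells was applied anew within each set of cells, so the number of genes it let through varied. Only the counts in Ighv UMIs and at a fold of 2 are of the same 45 genes. Ighv5-12, Ighv1-2 and Ighv1-82 stayed higher, and Ighv1-12, Ighv5-9, Ighv9-1 and Ighv5-4 lower, under all 15 alternatives, though not always past the fold. In Ighv UMIs, the log2 ratio of IL-27 over PBS was 0.57 for the Ighv1 family, 1.31 for Ighv2, -0.38 for Ighv3, -0.82 for Ighv5 and -1.66 for Ighv9. Ighv2 gave -0.11 with pairs counted once, 0.30 in female-called cells and -0.079 with cells thinned to 1000 UMIs, which left out 313 IL-27 and 196 PBS B cells. The genes within 250 kb of the D genes gave 0.67 in Ighv UMIs, against -0.03 in assigned cells.

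In B1-like cells under stricter gates, the Ighv1 family took 28.6% and Ighv11-2 7.14%, and Ighv11-2 held 1.04% of Ighv UMIs in B1-like cells under the unchanged gate and took 1.63% to 3.61% with each well left out. The Ighv1 family held 56.0% of the Ighv UMIs of germinal centre cells, and took 31.2% to 45.3% of the cells with each well left out. Ighv1-14 took 7.69% of IL-27 germinal centre cells with pairs counted once among cells with both chains assigned. It took 4.76% to 22.6% with each well left out. Ighv1-12 cells were switched in 10.5% of female-called cells, and in 8.11% to 21.5% with each well left out.

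The plasma cell share of Ighv UMIs with IL-27 was 41.8% with no doublet removed, 49.8% in female-called cells, 36.5% under stricter gates, 10.98% with B cells thinned, and 5.75% to 51.3% with each well left out. With PBS it was 34.5% without cell filters, 33.9% in female-called cells, 10.2% thinned, and 27.2% to 40.9% with each well left out. In the thinned setting the base was the Ighv UMIs of B cells only, and in the others those of all cells used. Cells with 1 leading gene made up 66.5% with IL-27 and 69.9% with PBS. At over 50% of at least 1 UMI they made up 89.0% with IL-27 and 90.6% with PBS, at 90% of at least 3 UMIs 54.7% with IL-27 and 57.1% with PBS, and thinned 71.6% with IL-27 and 74.5% with PBS. In female-called PBS cells the share was 68.4%. The cause of these changes was not tested. Of 10955 B cells with IL-27, 6993 had at least 2 Ighv UMIs and 4648 were assigned, and of 7676 with PBS, 5058 had at least 2 and 3534 were assigned.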
